A study of Mus musculus with 6 samples.

Results

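The hypoxia-inducible factors (HIFs) and the enzymes that couple them to oxygen were examined in whole lung of male BALB/c mice. The members were taken by name: Hif1a, Epas1 and Hif3a (the HIF alpha subunits), Arnt (their partner), Egln1, Egln2 and Egln3 (prolyl hydroxylases), Vhl (the recognition subunit of the ubiquitin ligase) and Hif1an (the asparagine hydroxylase FIH). Every probe set whose array annotation named exactly 1 of these symbols was kept, which gave 24 of 45037 probe sets and 9 of 17097 genes. The mice were 10 weeks old at the start. Control mice (n = 3) breathed normal air, and hydrogen mice (n = 3) breathed 2% hydrogen gas in 98% air for 3 weeks. Each mouse gave 1 array, a one-colour 3′ expression array read on a GeneAtlas instrument, and the values are the authors' log2 intensities. The labels name no donor or cage that would pair the mice. With 3 arrays a group, an exact permutation test cannot go below p = 0.1, so calls below come from limma fitted across all probe sets, with Benjamini-Hochberg adjustment and a threshold of 0.05.

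In cells with enough oxygen, the prolyl hydroxylases mark HIF alpha subunits, VHL binds the marked protein, and the proteasome destroys it, while FIH blocks the binding of coactivators. When oxygen falls, the alpha subunits persist, pair with ARNT and bind short response elements in genes of glycolysis, vessel growth and cell survival. Epas1, which encodes HIF-2 alpha, is abundant in lung endothelium and alveolar type 2 cells. These steps act mainly on protein, and an array measures RNA.

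The 2 groups differed over much of the array. Array medians were 4.75 to 4.76 in control mice and 4.84 to 4.85 in hydrogen mice, and the values of an array spread with an SD of 1.90 to 1.92 in the former and 1.80 to 1.81 in the latter. Of all probe sets, 10956 were higher and 10257 lower in hydrogen mice. The median difference depended on brightness: it lay between 0.03 and 0.15 in each of the 6 dimmest deciles and between -0.23 and -0.05 in each of the 4 brightest. Each member is therefore given beside the median of its own brightness decile. The non-mouse control probe sets (85) hold spike-in controls of labelling and hybridisation, and also tag and background probe sets. Of these, 15 were higher and 27 were lower, with differences from -0.97 to 1.07. Among the background probe sets the difference grew with GC content, from -0.02 (NonspecificGC10) to 0.20 (NonspecificGC20) and 1.07 (NonspecificGC25). The part of background signal, labelling, hybridisation or the authors' scaling in the members' differences was not tested. Lung markers were bright on every array, with the surfactant gene Sftpc at 13.14 to 13.19 and the type 1 cell gene Ager at 12.49 to 12.69.

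HIF dimers bind a core of 5 bases, ACGTG or GCGTG, read on either strand. Promoters from RefSeq (GRCm38.p6, 250 bases before to 50 after the start) were found for 8 of the 9 members, in 9 promoters, because Egln2 has 2; Epas1 has none in the table. A core lay in 7 of these 9 promoters, while 43.8% of all 32851 promoters hold one. Such a match is a description of the letters and not a binding site. Vhl and Hif1an hold none in this window. The 250 bases before the start are shown for Hif3a and Vhl, the 2 members in the table with a probe set called under every alternative that measured it; the first holds cores and the second does not. The Hif3a stretch is chr7:17062428-17062677 on the minus strand and the Vhl stretch is chr6:113623744-113623993 on the plus strand, both written 5′ to 3′ with cores in capitals (CACGC is GCGTG read on the other strand).
Hif3a: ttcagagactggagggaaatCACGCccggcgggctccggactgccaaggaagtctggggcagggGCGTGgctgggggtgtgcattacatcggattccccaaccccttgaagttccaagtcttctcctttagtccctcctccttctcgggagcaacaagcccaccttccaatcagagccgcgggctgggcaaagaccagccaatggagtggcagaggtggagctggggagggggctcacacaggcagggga
Vhl: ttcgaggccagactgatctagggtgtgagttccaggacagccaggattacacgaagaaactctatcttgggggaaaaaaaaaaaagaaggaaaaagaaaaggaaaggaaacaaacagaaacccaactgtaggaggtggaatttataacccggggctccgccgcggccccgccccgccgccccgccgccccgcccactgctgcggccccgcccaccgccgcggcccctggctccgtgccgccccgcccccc

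Stretches of 40 bases around a core are shown for the other members that hold one, so that the surroundings of the core can be compared between factors and sensors. They are Hif1a chr12:73907779-73907818 (plus strand), Arnt chr3:95434343-95434382 (plus), Egln1 chr8:124949301-124949340 (minus), Egln2 chr7:27166815-27166854 (minus) and Egln3 chr12:54204082-54204121 (minus), with cores in capitals.
Hif1a: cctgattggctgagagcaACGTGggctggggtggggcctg
Arnt: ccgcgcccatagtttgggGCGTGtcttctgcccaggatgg
Egln1: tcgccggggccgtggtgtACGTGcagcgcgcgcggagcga
Egln2: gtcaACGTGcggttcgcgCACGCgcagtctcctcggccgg
Egln3: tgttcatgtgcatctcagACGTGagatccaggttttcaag

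The main difference among the members was in Hif3a, whose brightest probe set was 2.19-fold higher in hydrogen mice. Lower values were found for 1 of the 2 probe sets of Epas1, 1 of the 2 of Egln1 and the brightest of Arnt and Hif1an, and higher values for dim probe sets of Hif1a, Vhl and Hif3a. In all, 5 of the 24 member probe sets rose, 4 fell and 15 did not pass the test. Over all probe sets 24.3% rose, 22.8% fell and 47.1% were called in either direction, so the members were called no more often than the array as a whole. The groups did not overlap in 13 of the 24, against 57.3% of all probe sets. The median absolute difference was 0.15 for the members and 0.18 for all probe sets. By gene, with the brightest probe set standing for each, Hif3a rose, Arnt and Hif1an fell and 6 did not pass, against 26.1% of all genes that rose, 26.4% that fell and 52.5% called in either direction. The groups did not overlap in 5 of the 9 genes, against 61.0% of all genes.

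**Figure D1:**
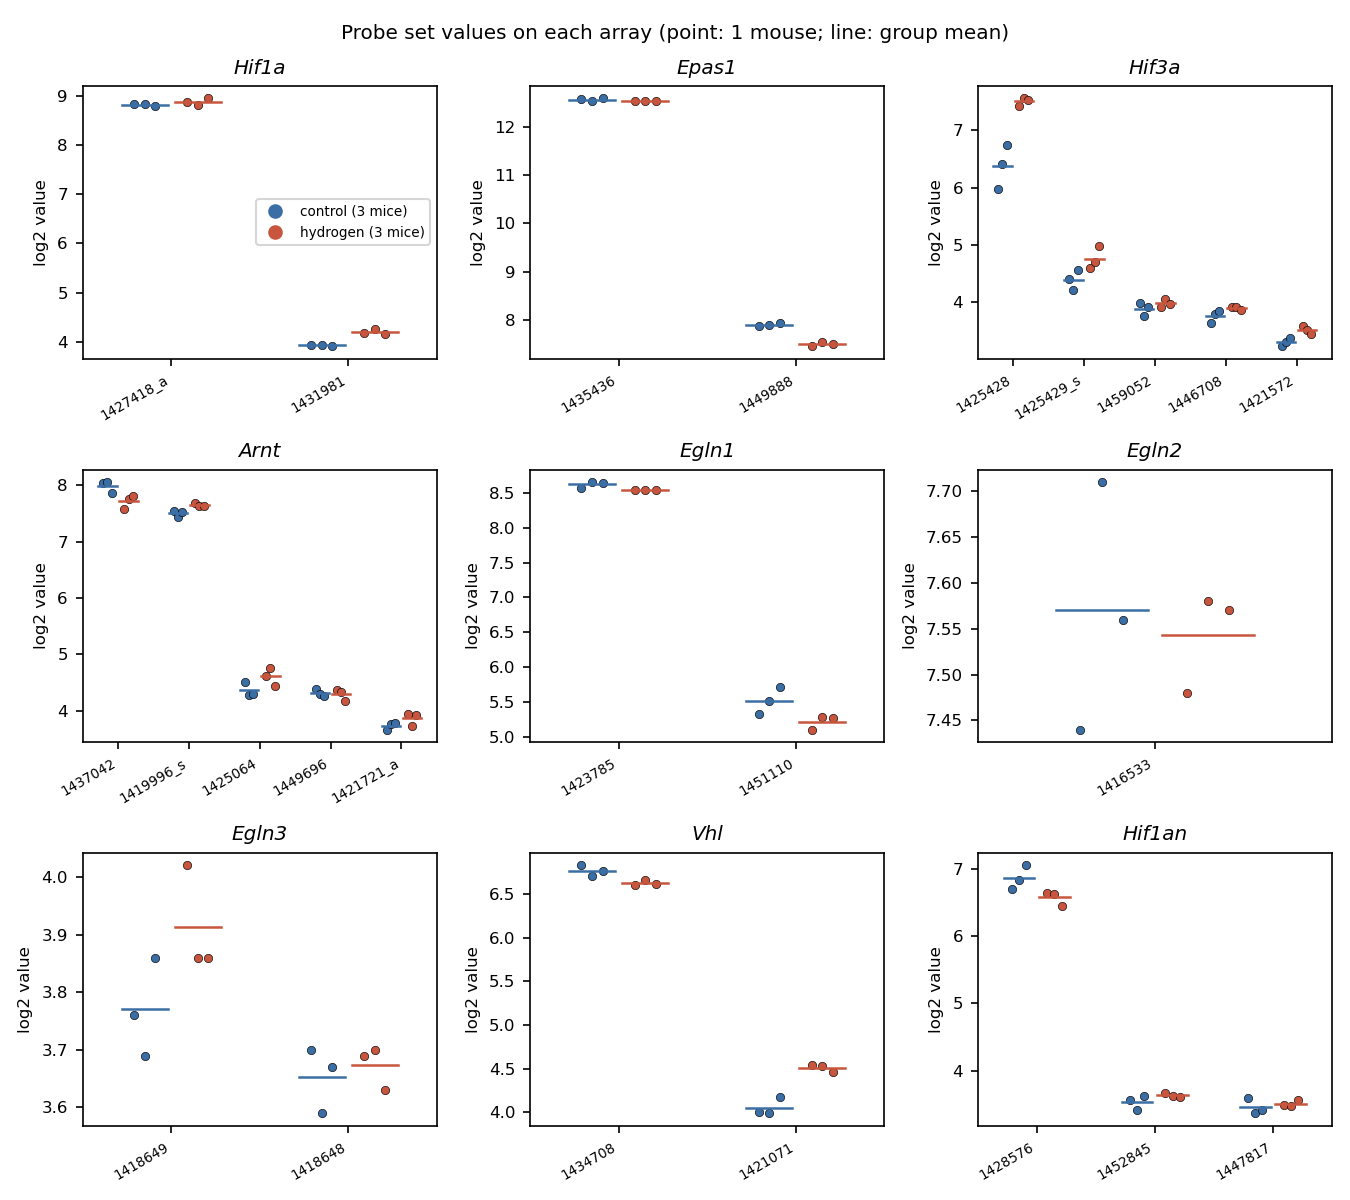
Log2 intensity of every member probe set on each of the 6 arrays, 1 panel a gene, with control mice and hydrogen mice as separate points. The brightest Hif3a probe set lies at 5.98 to 6.74 in control mice and 7.43 to 7.56 in hydrogen mice; panels have their own vertical scales, and levels of different probe sets are not comparable.

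Hif3a encodes a HIF alpha subunit with splice forms that can restrain the other HIFs, and its messenger is known to be induced by HIF in several tissues. Its brightest probe set, 1425428_PM_at, read 5.98, 6.41 and 6.74 in control mice and 7.43, 7.56 and 7.54 in hydrogen mice. Every hydrogen mouse was above every control mouse, and the spread was wider among controls (6.38 ± 0.38, SD, n = 3) than among hydrogen mice (7.51 ± 0.07, SD, n = 3). The difference was 1.13 (log2; SE 0.16, 95% confidence interval 0.76 to 1.50, limma adjusted p = 0.00115; exact permutation p = 0.1, the smallest possible). It ran against its brightness decile, whose median was -0.23 and in which 289 of 4504 probe sets rose and 2409 fell. It stayed called under all 13 alternatives, between 0.94 and 1.33 with adjusted p from 0.000315 to 0.00603.

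The other Hif3a probe sets were dim and moved less. Probe set 1425429_PM_s_at, which the array design draws from the same transcript, read 4.41, 4.21 and 4.56 in control mice and 4.59, 4.70 and 4.98 in hydrogen mice. It was 0.36 higher (limma adjusted p = 0.0326), with no overlap, beside a decile median of 0.15. That call was lost under median centring (0.27, adjusted p = 0.0857), renewed quantile normalisation (0.26, 0.13) and cyclic loess (0.22, 0.173), and without control mouse 1 (adjusted p = 0.0711), control mouse 2 (0.109), hydrogen mouse 2 (0.06) or hydrogen mouse 3 (0.088). Probe set 1421572_PM_at read 3.23, 3.31 and 3.38 in control mice and 3.59, 3.51 and 3.44 in hydrogen mice, a difference of 0.21 (limma adjusted p = 0.0296). The groups did not overlap there either, but the same 3 scalings ended the call (adjusted p = 0.166, 0.119 and 0.132), as did leaving out control mouse 1 (0.091), control mouse 2 (0.0688), hydrogen mouse 1 (0.0988) or hydrogen mouse 2 (0.0745). Probe set 1446708_PM_at (difference 0.15, adjusted p = 0.106) and 1459052_PM_at (0.09, 0.334) did not pass the test in limma. Thus the size of the Hif3a difference rested on 1 probe set: the mean of all 5 gave 0.39 (limma adjusted p = 0.00263). The brightest probe set rose by 0.77 to 1.04 more than each of the other 4 on the same arrays (exact permutation p = 0.1 for each, 0.125 after adjustment over the 15 pairs of probe sets of 1 gene).

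Hif1a encodes HIF-1 alpha, the widely expressed subunit that drives glycolytic genes. Its bright probe set 1427418_PM_a_at read 8.84, 8.84 and 8.79 in control mice and 8.87, 8.81 and 8.95 in hydrogen mice. The groups overlapped, and the difference was 0.05 (SE 0.06, 95% confidence interval -0.08 to 0.19, limma adjusted p = 0.472). Its decile median was -0.13. It was called higher under renewed quantile normalisation (0.23, adjusted p = 0.0141) and cyclic loess (0.22, 0.0165), while median centring gave -0.04 (0.635). The dim probe set 1431981_PM_at read 3.93, 3.94 and 3.91 in control mice and 4.18, 4.26 and 4.16 in hydrogen mice. It was 0.27 higher with no overlap (limma adjusted p = 0.00436), beside a decile median of 0.15, and both of those normalisations left 0.15 (adjusted p = 0.0561 and 0.0626).

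Epas1 encodes HIF-2 alpha. Its brighter probe set 1435436_PM_at read 12.59, 12.54 and 12.60 in control mice and 12.54, 12.55 and 12.54 in hydrogen mice, near the top of the scale, where the brightest value on each array was 13.21 to 13.25. The groups overlapped, with a difference of -0.03 (95% confidence interval -0.15 to 0.08, limma adjusted p = 0.616). The second probe set, 1449888_PM_at, read 7.86, 7.89 and 7.94 in control mice and 7.45, 7.54 and 7.49 in hydrogen mice. Here every hydrogen mouse was below every control mouse, and the value fell by 0.40 on the log2 scale (SE 0.05, 95% confidence interval -0.53 to -0.28, limma adjusted p = 0.000958), beside a decile median of -0.23. The call held under all 13 alternatives, although the difference was as small as -0.18 under renewed quantile normalisation (adjusted p up to 0.044 over all alternatives). In the decile of this probe set 2409 of 4504 probe sets fell.

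Arnt encodes the beta subunit with which HIF alpha subunits pair to bind DNA, and its 5 probe sets did not move together. The brightest, 1437042_PM_at, read 8.04, 8.06 and 7.87 in control mice and 7.58, 7.75 and 7.81 in hydrogen mice. It was lower with no overlap, by -0.28 (limma adjusted p = 0.0216), close to its decile median of -0.23. The call ended under renewed quantile normalisation (-0.05, adjusted p = 0.651), under cyclic loess (-0.08, 0.468), and without control mouse 1 (0.0663), control mouse 2 (0.0733) or hydrogen mouse 1 (0.0697). The next brightest, 1419996_PM_s_at, went the other way, from 7.54, 7.44 and 7.53 in control mice to 7.69, 7.63 and 7.63 in hydrogen mice. Its difference of 0.15 did not pass the test in limma (adjusted p = 0.0579) but was called higher after renewed quantile normalisation (0.37, 0.00181), cyclic loess (0.35, 0.00234) and with array weights (0.0442). The brightest Arnt probe set shifted by -0.42 against this one (exact permutation p = 0.1, adjusted 0.125). Of the 3 dim ones, 1425064_PM_at differed by 0.24 (limma adjusted p = 0.0641), and passed with array weights (0.0334), without control mouse 1 (0.0359) and without hydrogen mouse 3 (0.0232). Probe set 1449696_PM_at (-0.02, adjusted p = 0.803) and 1421721_PM_a_at (0.13, 0.162) did not pass in limma, and no single direction can be given for Arnt.

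The prolyl hydroxylases mostly stayed short of the threshold. Egln1 encodes PHD2, the main oxygen sensor of the family. Its bright probe set 1423785_PM_at read 8.57, 8.66 and 8.65 in control mice and 8.55, 8.54 and 8.55 in hydrogen mice. The groups did not overlap, but by a narrow margin, and the difference of -0.08 did not pass in limma (adjusted p = 0.243); it was called lower only under median centring (-0.17, adjusted p = 0.0308). Its second probe set 1451110_PM_at read 5.32, 5.51 and 5.71 in control mice and 5.10, 5.28 and 5.27 in hydrogen mice. That was lower by -0.30 with no overlap (limma adjusted p = 0.0389), beside a decile median of -0.05. It missed the threshold after renewed quantile normalisation (0.0531) and without any 1 of control mouse 2 (0.0891), control mouse 3 (0.101), hydrogen mouse 1 (0.122), hydrogen mouse 2 (0.0629) or hydrogen mouse 3 (0.0579).

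Egln2 encodes PHD1 and had 1 probe set, 1416533_PM_at, at 7.44, 7.71 and 7.56 in control mice and 7.48, 7.58 and 7.57 in hydrogen mice. The groups overlapped, with a difference of -0.03 (95% confidence interval -0.20 to 0.15, limma adjusted p = 0.796). Egln3 encodes PHD3, whose messenger is a strongly hypoxia-inducible member of the family. Both its probe sets were dim: 1418649_PM_at read 3.76, 3.69 and 3.86 in control mice and 4.02, 3.86 and 3.86 in hydrogen mice, and 1418648_PM_at read 3.70, 3.59 and 3.67 against 3.69, 3.70 and 3.63. Neither passed in limma (0.14, adjusted p = 0.124, and 0.02, adjusted p = 0.793), and at such low intensities a change in Egln3 may not be detectable.

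Vhl gave opposite signs from its 2 probe sets in the deposited scaling. The brighter, 1434708_PM_at, read 6.83, 6.71 and 6.77 in control mice and 6.60, 6.66 and 6.62 in hydrogen mice. The groups did not overlap, and its difference of -0.14 did not pass in limma (adjusted p = 0.0641), though median centring brought it past the threshold (-0.23, 0.00923). Renewed quantile normalisation (0.05, adjusted p = 0.489) and cyclic loess (0.03, 0.715) gave it the sign of the other probe set, short of the threshold. The dimmer, 1421071_PM_at, read 4.00, 3.99 and 4.17 in control mice and 4.54, 4.53 and 4.46 in hydrogen mice. It was higher by 0.46 with no overlap (SE 0.07, 95% confidence interval 0.31 to 0.61, limma adjusted p = 0.0012), beside a decile median of 0.15. It kept its call under all 12 alternatives that measured it, with adjusted p up to 0.00633. In its decile 1886 of 4503 probe sets rose. The brighter probe set shifted by -0.60 against the dimmer (exact permutation p = 0.1, adjusted 0.125), so in the deposited scaling the direction for Vhl depends on which is read.

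Hif1an encodes FIH, which hydroxylates an asparagine in the activation domain of HIF alpha subunits. Its bright probe set 1428576_PM_at read 6.70, 6.84 and 7.05 in control mice and 6.64, 6.63 and 6.45 in hydrogen mice. All hydrogen values were below all control values, with a difference of -0.29 (SE 0.10, limma adjusted p = 0.0355), beside a decile median of -0.18. Renewed quantile normalisation (-0.09, adjusted p = 0.499) and cyclic loess (-0.12, 0.394) ended the call, as did leaving out control mouse 2 (0.0749), control mouse 3 (0.0913), hydrogen mouse 1 (0.0529), hydrogen mouse 2 (0.0605) or hydrogen mouse 3 (0.106). The dim probe sets 1452845_PM_at (0.10, adjusted p = 0.27) and 1447817_PM_at (0.05, 0.618) did not pass in limma.

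**Figure D2:**
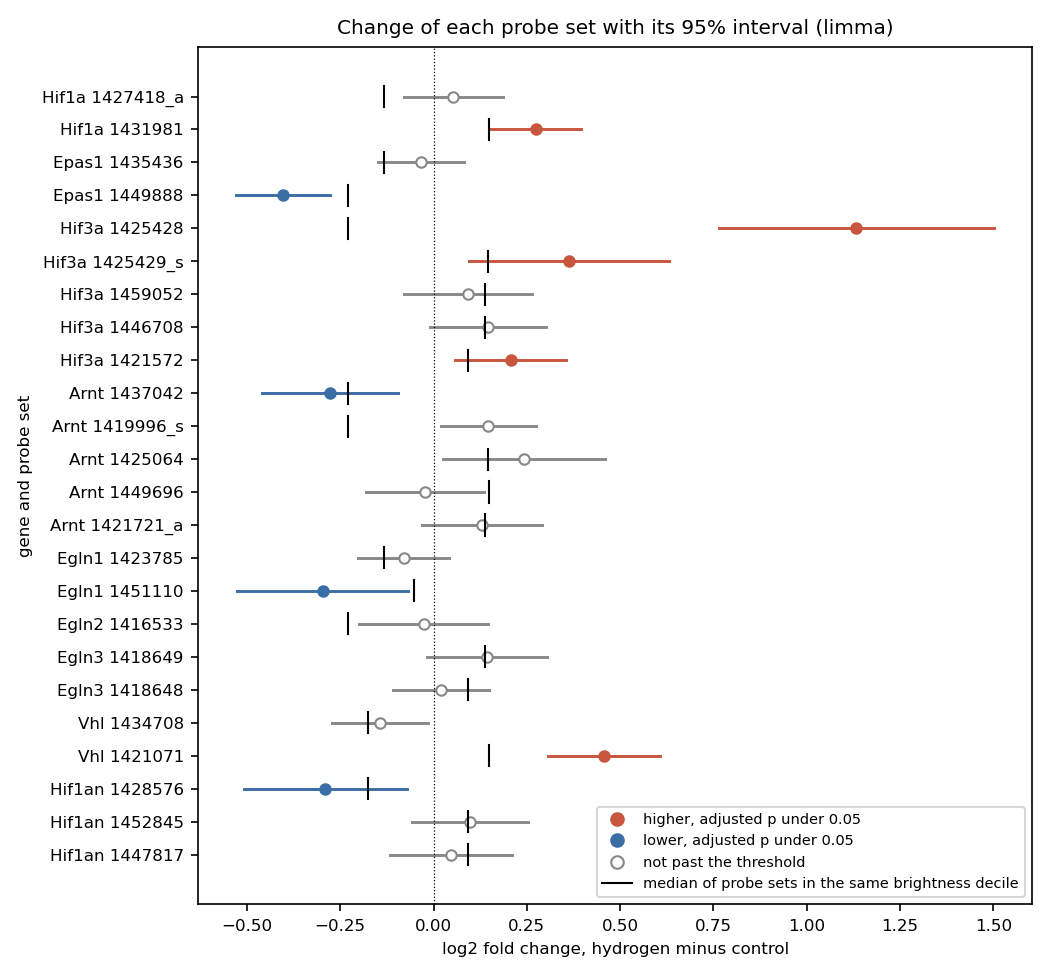
Difference between hydrogen and control mice (log2, horizontal axis) for each member probe set, with its 95% confidence interval from limma, beside the median difference of its brightness decile. Hif3a at 1.13 stands farthest from its decile median of -0.23, while the brightest Arnt probe set at -0.28 lies close to its decile.

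Across the scalings, 3 of the 9 called member probe sets kept their call in every alternative that measured them: Hif3a 1425428_PM_at, Epas1 1449888_PM_at and Vhl 1421071_PM_at. No called probe set changed sign under any alternative. Of the 15 that did not pass, 8 changed sign in at least 1 alternative. Among them were Egln1 1423785_PM_at (0.11 under renewed quantile normalisation), Egln2 1416533_PM_at (0.20) and Vhl 1434708_PM_at (0.05), which were below 0 in the deposited scaling, and none was called with the opposite sign.

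**Figure D3:**
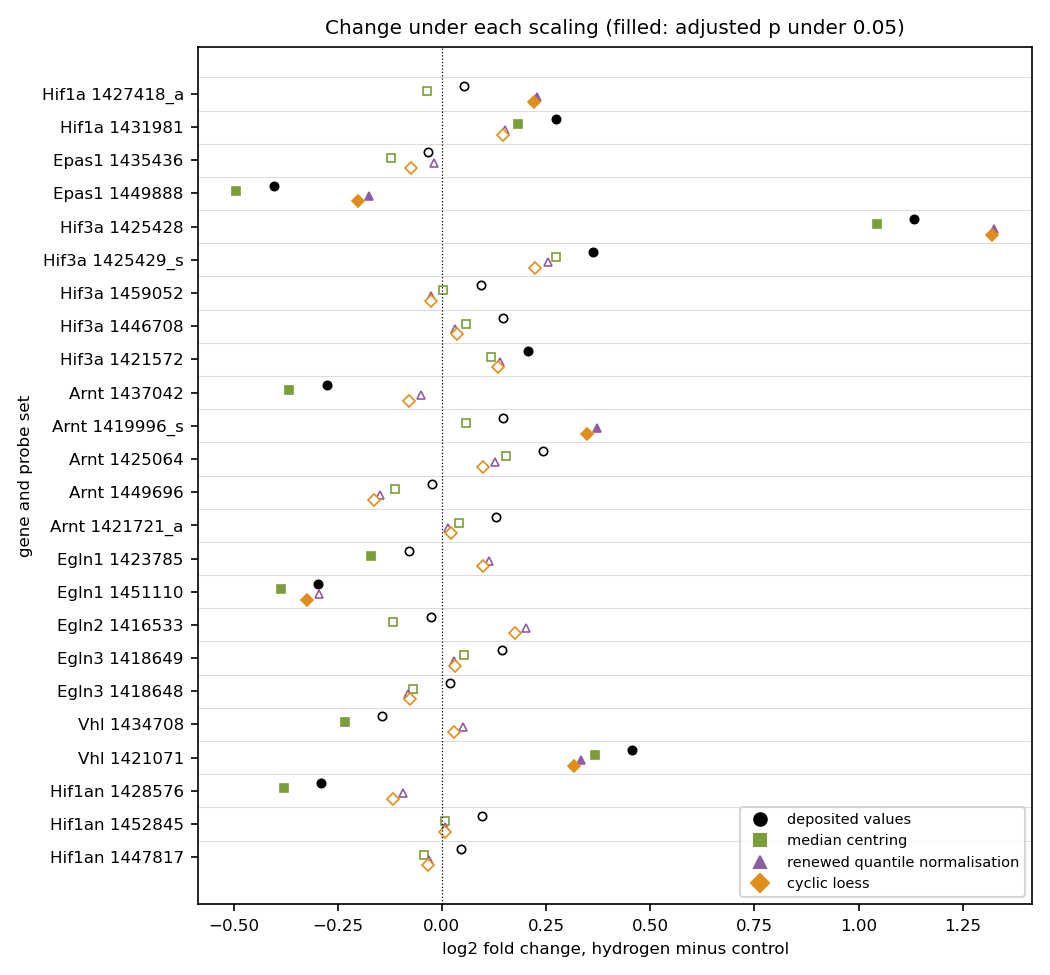
Difference between hydrogen and control mice (log2) of each member probe set under the deposited scaling, median centring, renewed quantile normalisation and cyclic loess. The brightest Hif3a probe set is called higher under all 4, up to 1.33, and the brightest Arnt probe set moves from -0.28 to -0.05 under quantile normalisation.

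Genes that HIF-1 is known to induce in glycolysis were next read by their brightest probe sets. Of 18 measured of 21 listed, 8 fell, 1 rose and 9 did not pass, with a median difference of -0.24 against 0.01 for all genes, where 26.4% fell and 26.1% rose. The list is bright, with a median level of 7.16, which lies in the ninth brightness decile, where 2409 of 4504 probe sets fell, 289 rose and the median was -0.23. The list's counts and median are therefore near those of probe sets of like brightness. Slc2a1, the glucose transporter GLUT1, read 6.83, 7.17 and 7.18 in control mice and 5.84, 5.95 and 5.82 in hydrogen mice, and fell by 1.19 on the log2 scale (limma adjusted p = 0.000186). Other readings of Slc2a1 were smaller: without shared probe sets the value was -0.19 (adjusted p = 0.0837). The mean of all its probe sets, the brightest included, was -0.69. Hk2, hexokinase 2, read 7.54, 7.63 and 7.49 against 6.79, 6.16 and 6.77 and fell by 0.98 (limma adjusted p = 0.0013). For both genes the groups were clearly apart. Pfkl, the liver-type phosphofructokinase, rose by 0.39 (limma adjusted p = 0.00116) on its brightest probe set but not on the mean of all its probe sets (0.10, 0.125) or without shared ones (0.02, 0.856).

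Several further calls on the list depended on the scaling. Gapdh (-0.27, limma adjusted p = 0.00723) and Pgk1 (-0.24, 0.00826) fell, and each lost the call under renewed quantile normalisation (-0.15 and -0.08, adjusted p = 0.0965 and 0.29) and under cyclic loess (-0.14 and -0.09, adjusted p = 0.108 and 0.227). Pdk1, the kinase that holds back pyruvate oxidation, was -0.25 (limma adjusted p = 0.0314), and both normalisations left it near 0 (-0.02, adjusted p = 0.896, and -0.05, adjusted p = 0.645). It also missed the threshold without control mouse 1 (0.0517), control mouse 2 (0.096), hydrogen mouse 1 (0.0954) or hydrogen mouse 2 (0.0873). Ldha (-0.11, adjusted p = 0.129; -0.20 and 0.0167 under median centring) and Aldoa (-0.07, adjusted p = 0.432) did not pass in limma. Over the list, the number that fell went from 8 to 3 under either normalisation.

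Among 31 of 34 other hypoxia-induced targets, 15 fell, 5 rose and 11 did not pass, with a median of -0.24. Their median level of 7.73 lies in the same ninth decile, so the share that fell was no higher than among probe sets of like brightness (2409 of 4504). The share that rose was higher than in that decile (289 of 4504), but some of the genes that rose are dimmer. Car12 (mean level 4.13) lies in the fourth decile, where 1886 of 4503 probe sets rose. Kdm4b (5.26) lies in the sixth, where 1594 of 4504 rose. Renewed quantile normalisation and cyclic loess each left 5 that fell and 4 that rose. P4ha2, a collagen prolyl hydroxylase subunit, read 8.06, 8.18 and 8.26 in control mice and 7.41, 7.48 and 7.48 in hydrogen mice and fell by 0.71 (limma adjusted p = 0.00024). Adm, the vasodilator peptide adrenomedullin, read 6.46, 6.08 and 6.95 against 6.02, 5.14 and 4.27. Its difference of -1.35 (limma adjusted p = 0.0186) was widely spread among hydrogen mice, and it missed the threshold without control mouse 3 (-1.13, 0.0587) and with trend and robust fitting (0.104). Ankzf1 rose by 0.78 (6.84, 6.84 and 6.85 against 7.62, 7.70 and 7.54; limma adjusted p = 0.000186), and by 0.35 on the mean of all its probe sets and 0.29 without shared ones. Stc2, stanniocalcin 2, rose by 0.62 (limma adjusted p = 0.000258), or 0.40 on the mean of all its probe sets.

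Vegfa, the main vascular growth factor, was 9.93, 9.81 and 9.90 in control mice and 9.63, 9.69 and 9.61 in hydrogen mice. It fell by 0.24 (limma adjusted p = 0.00987) but not under renewed quantile normalisation (-0.13, 0.101) or cyclic loess (-0.11, 0.175), and the mean of all its probe sets was -0.38. Bnip3, a mitophagy gene, fell by 0.51 (limma adjusted p = 0.00437). Ddit4, an inhibitor of mTOR signalling, was -0.69 with overlapping groups (limma adjusted p = 0.0202). It missed the threshold under renewed quantile normalisation (0.0992), cyclic loess (0.0835) and trend and robust fitting (0.0674), and without control mouse 1 (0.0573), control mouse 2 (0.0726), hydrogen mouse 1 (0.0687) or hydrogen mouse 2 (0.0587). Bnip3l (-0.02, adjusted p = 0.725; -0.14 and 0.0291 on the mean of all its probe sets), Ankrd37 (0.05, 0.763), Car9 (0.18, 0.0788; 0.25 and 0.0247 without control mouse 3), Cited2 (-0.04, 0.831) and Ndrg1 (0.08, 0.442) did not pass in limma, although Ndrg1 was called higher under renewed quantile normalisation (0.31, 0.0228) and cyclic loess (0.28, 0.0355).

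**Figure D4:**
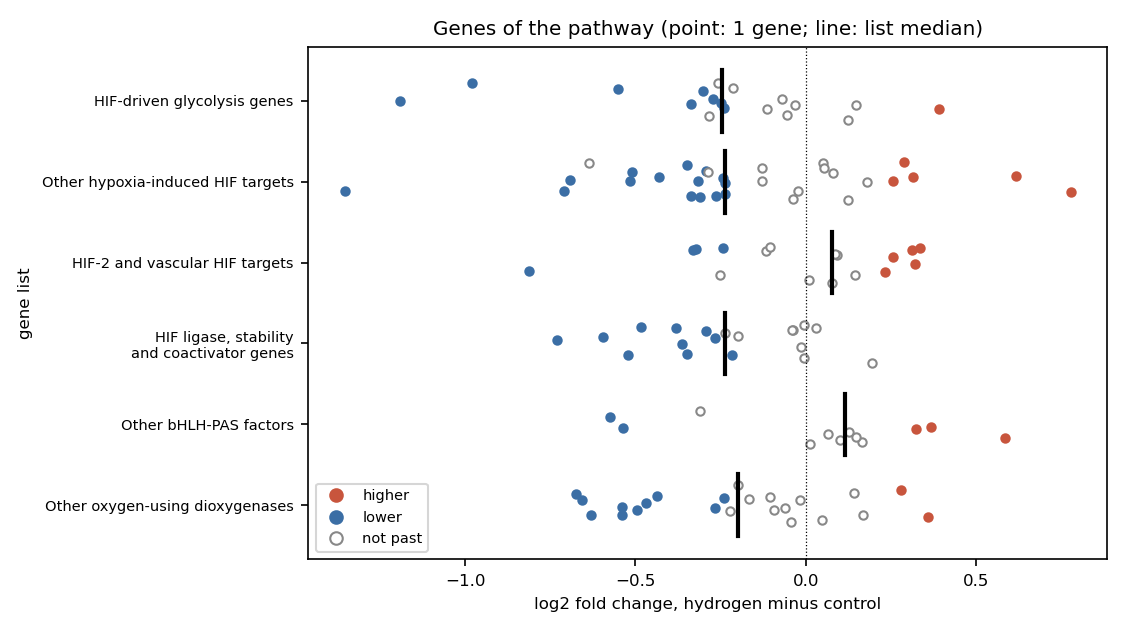
Difference between hydrogen and control mice (log2) of each measured gene of the 6 pathway lists, by its brightest probe set, with genes past the limma threshold marked and the median of each list drawn. The glycolysis genes have a median of -0.24 and reach down to Slc2a1 at -1.19.

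Targets tied mainly to HIF-2 and to vessels showed no common direction: of 17 measured of 20, 5 rose, 4 fell and 8 did not pass (median 0.08). Their median level of 6.95 lies at the lower edge of the ninth decile. That decile had a median of -0.23, with 2409 of 4504 probe sets lower and 289 higher. The list's median was thus above that of its brightness, and a smaller share fell. Median centring changed that split to 2 higher and 7 lower. Plaur, the urokinase receptor, rose by 0.32 (limma adjusted p = 0.00809), or 0.53 after renewed quantile normalisation. Cxcl12, a chemokine, was 0.33 higher (limma adjusted p = 0.0372) with overlapping groups, and lost the call under median centring (0.103), on the mean of all its probe sets (0.12, 0.16), and without control mouse 1 (0.0675), control mouse 3 (0.107), hydrogen mouse 1 (0.12) or hydrogen mouse 2 (0.0972). Cybrd1, a ferric reductase, was -0.81 (limma adjusted p = 0.000313) on its brightest probe set and -0.12 (0.206) on the mean of all. The VEGF receptor gene Flt1 fell by 0.33 (limma adjusted p = 0.00221; -0.16 and adjusted p = 0.0759 under renewed quantile normalisation, -0.16 and 0.0623 under cyclic loess) and the endothelial phosphatase gene Ptprb by 0.32 (limma adjusted p = 0.0104). Tek, the angiopoietin receptor, did not pass in limma (-0.12, adjusted p = 0.204; 0.0372 under median centring).

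Of 25 genes for proteins that work with VHL and for HIF coactivators, 19 were measured. By limma 0 rose, 10 fell and 9 did not pass (median -0.24), and with no adjustment of p, 1 was higher and 11 were lower. Their median level of 7.998 again lies in the ninth decile, whose median was -0.23 with 2409 of 4504 probe sets lower and 289 higher, so the share that fell was near that of its brightness. Under renewed quantile normalisation 3 rose and 5 fell, and under cyclic loess 2 rose and 4 fell. Ncoa1, a coactivator, read 8.16, 8.17 and 8.13 in control mice and 7.48, 7.60 and 7.59 in hydrogen mice and fell by 0.60 (limma adjusted p = 0.000245; -0.37 under renewed quantile normalisation). Hsp90aa1, a chaperone that stabilises HIF-1 alpha, fell by 0.73 (limma adjusted p = 0.00612). The 2 brightest genes of the list, both for ligase subunits, gave small differences. Elob was -0.27 (limma adjusted p = 0.00715), a call lost under cyclic loess (0.0887) and on the mean of all its probe sets (0.0808). Rbx1 was -0.01 (limma adjusted p = 0.926).

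The other bHLH-PAS factors, the family to which the HIF subunits belong, were measured for all 12 genes listed: 3 rose, 2 fell and 7 did not pass (median 0.11). They are dim, with a median level of 4.11 in the fourth decile, whose median was 0.15 with 1886 of 4503 probe sets higher. Arntl2, a paralogue of the clock factor BMAL1, was 0.58 higher (limma adjusted p = 0.000525) but -0.04 (0.659) when shared probe sets were left out. Sim1 was 0.37 higher (limma adjusted p = 0.00446; 0.22 and 0.0532 under cyclic loess). The clock genes Clock (-0.57, limma adjusted p = 0.00876) and Npas2 (-0.54, limma adjusted p = 0.00626) fell. Clock missed the threshold under renewed quantile normalisation (0.0896) and cyclic loess (0.0627), and Npas2 on the mean of all its probe sets (-0.13, 0.228). Ahr, the aryl hydrocarbon receptor, was 0.32 higher with overlapping groups (limma adjusted p = 0.0347), and lost the call under median centring (0.0979), on the mean of all its probe sets (0.0706), and without control mouse 2 (0.0806), control mouse 3 (0.104), hydrogen mouse 1 (0.0856) or hydrogen mouse 2 (0.115).

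Other oxygen-using dioxygenases, most of which use 2-oxoglutarate as the prolyl hydroxylases do, were measured for 23 of 25 genes. Of these, 10 fell, 2 rose and 11 did not pass (median -0.20). Their median level of 6.67 lies in the eighth decile, whose median was -0.18 with 1988 of 4504 probe sets lower and 554 higher, so these values too are near those of like brightness. Cyclic loess left 7 that fell. Plod1, a collagen lysyl hydroxylase, fell by 0.67 (limma adjusted p = 0.000442), or 0.22 on the mean of all its probe sets. Kdm2b, a histone demethylase, fell by 0.66 (limma adjusted p = 0.000333), Alkbh5, an RNA demethylase, by 0.63 (0.000278; -0.41 on the mean of all its probe sets), and Phyh, which acts on branched fatty acids, by 0.50 (0.000976). Renewed quantile normalisation left -0.27 for Phyh. Tet3 (0.36, limma adjusted p = 0.00428; 0.0548 under cyclic loess) and Kdm2a (0.28, limma adjusted p = 0.0134; 0.0526 under median centring, 0.0503 without control mouse 2, 0.116 under renewed quantile normalisation and 0.131 under cyclic loess) were the 2 that rose.

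Markers of several cell types moved between the groups as well, and in whole lung fewer cells of a type and less RNA per cell cannot be told apart. Of 14 cardiac muscle markers 13 fell and 0 rose by limma (likewise 0 at an unadjusted p under 0.05), and their summed log2 level was 113.69 to 117.69 in control mice and 78.32 to 100.31 in hydrogen mice; 7 fell with trend and robust fitting. Club cell markers fell in 7 of 9 (sum 96.42 to 98.48 against 74.81 to 91.28), and in 4 without control mouse 1 or control mouse 2. Adipocyte markers fell in 3 of 7 and rose in 1 (50.15 to 50.73 against 35.06 to 50.05), a count that rested on single arrays: 0 fell by limma without hydrogen mouse 2 or hydrogen mouse 3, 1 without control mouse 1 or control mouse 2, and 6 without hydrogen mouse 1. The part of these cells in the fall of Slc2a1, Hk2 and other targets, or in the Hif3a difference, was not tested.

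Smooth muscle and pericyte markers fell in 5 of 7 (51.87 to 52.36 against 46.70 to 49.52; 3 without control mouse 1, 2 under renewed quantile normalisation), ciliated cell markers in 5 of 7 (45.66 to 48.75 against 43.15 to 44.03; 2 without shared probe sets) and fibroblast markers in 4 of 9 (71.71 to 72.26 against 68.70 to 69.94). For endothelium, where Epas1 is abundant, 3 of 13 markers fell and 0 rose by limma (0 at an unadjusted p under 0.05), with sums of 121.80 to 123.37 and 120.30 to 122.65 that overlapped, and 1 fell under renewed quantile normalisation or cyclic loess. Alveolar type 2 markers rose in 3 of 8 (83.90 to 84.82 against 84.98 to 85.30). Alveolar type 1 markers fell in 5 of 8 (86.24 to 86.53 against 85.18 to 85.49), and in 3 without any 1 of control mouse 2, control mouse 3, hydrogen mouse 1 or hydrogen mouse 2. T cell markers rose in 4 and fell in 1 of 8 (41.32 to 42.73 against 43.27 to 44.06). B cell markers rose in 5 of 7 (38.73 to 39.79 against 40.56 to 41.99), and in 3 without control mouse 3 or hydrogen mouse 2. The T and B cell lists have median levels of 5.13 and 5.07, in the sixth decile, where 1594 of 4504 probe sets rose. Median levels of fibroblast (7.24) and cardiac (7.34) markers lie in the ninth decile, where 2409 of 4504 probe sets fell. Those of smooth muscle (6.66), ciliated (6.135) and adipocyte (6.30) markers lie in the eighth, where 1988 of 4504 fell. Type 1 (10.41), type 2 (10.88), club (10.30) and endothelial (9.69) medians lie in the tenth, where 1841 of 4504 fell and 238 rose. Macrophage markers fell in 1 of 7, neutrophil markers in 1 of 6 and erythroid markers in 1 of 3, and 0 rose in each list. Without hydrogen mouse 3, 3 neutrophil markers rose. Over all genes 26.1% rose and 26.4% fell. The lowest value of any probe set on an array was 2.61 to 2.67, and the lowest single values of cardiac, adipocyte and B cell markers were 3.56, 3.44 and 3.88, where presence cannot be judged.

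The genes whose values over the 6 arrays were most like those of a member were found by the root mean square difference after each was centred on its own mean. For Hif3a, whose SD over the arrays was 0.67, they were Krtap5-1 (difference 0.12), Slurp1 (0.12) and Oxt (0.14), with differences between the groups of 1.25, 1.15 and 1.14. These share mainly a rise of like size with Hif3a, and the background probe set NonspecificGC25 rose by 1.07. Whether the rise in such probe sets reflects transcript or background signal was not tested. For Epas1 they were Bnip3l, Tmprss11e and Iqub (each about 0.009), and for Hif1a Dgki (0.009), Kcnf1 (0.011) and Rps9 (0.013). The brightest Epas1 and Hif1a probe sets varied so little over the arrays (SD 0.028 and 0.056) that these neighbours share mainly a flat profile.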

How the data were processed

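Total lung RNA was kept in RNAlater, purified on columns, amplified by a 3′ method and hybridised to MG-430 PM array strips, per the labels' protocols. The deposited values are log2 intensities, for which the submitters' processing notes name RMA and Affymetrix Expression Console, with no version. Whether RMA was run over these 6 arrays together is not given in the sources used here. Of 45141 probe sets, 104 platform controls were left out of the tests. By the platform annotation, 28898 probe sets had 1 gene symbol (28689 of them matched in RefSeq), 551 had several symbols, among them no member, and 15588 had none.

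Tests used limma (version 3.58.1, run under R 4.3.3) with 2 groups, no covariate and no filter, over all 45037 probe sets and over 17097 genes by their brightest probe set, with Benjamini-Hochberg adjustment and a threshold of 0.05. An exact permutation test over the 20 assignments was run for single values. The number of arrays limits the precision, and p-values measure the spread between these samples. Members, lists and rules were chosen with earlier results of these data known. The named genes were all members, the 2 largest calls in each direction and the 2 brightest genes of each pathway list, a set of classical HIF targets, and the 3 genes most like Hif3a, Epas1 and Hif1a. The analysis was checked on simulated data. Alternatives covered the replicate block, 3 scalings, the variance model, array weights, dim and shared probe sets, a gene's mean over its probe sets, and leaving out each array.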

Additional observations from a re-analysis of the deposited data

How the results depend on the processing

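Over all probe sets, median centring gave 6377 higher and 14571 lower calls, and leaving out dim probe sets 3663 higher and 8396 lower; renewed quantile normalisation gave 8442 and 7564 and cyclic loess 7635 and 8283. Leaving out 1 array gave 7985 to 10097 higher and 7938 to 9608 lower. Member probe sets called numbered 3 higher and 6 lower under median centring, 4 and 1 under quantile normalisation, 4 and 2 under loess, 7 and 4 with array weights, 1 and 4 without dim ones, and 3 to 5 and 1 to 3 leaving out 1 array. Deviations of same-numbered mice correlated at 0.08, 0.03 and -0.11, within the range for differently numbered mice (-0.14 to 0.11). The replicate numbers thus gave no sign of pairing, though 3 arrays a group cannot exclude it. With the replicate number as a block in limma, 9986 probe sets were higher and 9791 lower, and members gave 4 and 3. Hif3a 1421572_PM_at (adjusted p = 0.0634), Hif1an 1428576_PM_at (0.0668) and Pdk1 (0.0533) then missed the threshold.
For the lists, median centring gave 2 higher and 7 lower vascular targets and 1 higher dioxygenase. Quantile normalisation gave 3 lower glycolysis genes, 5 lower hypoxia targets, 3 higher and 5 lower ligase and coactivator genes and 1 lower bHLH-PAS factor; loess gave 3, 5, 2, 4 and 1 in the same order and 0 higher dioxygenases. Without dim probe sets there were 0 higher dioxygenases, 3 higher hypoxia targets and 1 lower bHLH-PAS factor. The mean of all probe sets gave 0 higher glycolysis genes, 2 lower vascular targets and 1 lower bHLH-PAS factor, and leaving out shared ones 0 higher and 5 lower glycolysis genes. Leaving out 1 array gave, higher and lower, 1 to 2 and 7 to 9 glycolysis genes, 5 to 6 and 10 to 13 hypoxia targets, 3 to 5 and 3 to 4 vascular targets, 0 to 1 and 10 to 11 ligase and coactivator genes, 2 to 3 and 2 to 2 bHLH-PAS factors, and 1 to 3 and 9 to 12 dioxygenases. At gene level the mean of all probe sets gave Hif3a 0.39 (adjusted p = 0.00263, against 1.13 by its brightest probe set), turned Arnt to 0.044 (adjusted p = 0.45) and Vhl to 0.16 (0.0298), and gave Hif1a 0.16 (0.0149), Epas1 -0.22 (0.0051), Egln1 -0.19 (0.0434) and Hif1an -0.05 (0.47). Without shared probe sets Hif1a was 0.27 (0.00412) and Arntl2 turned to -0.037. The causes were not tested. Dim probe sets limit what can be said of Egln3 and of most Hif3a probe sets.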
